A study of Mus musculus with 12 samples.

Results

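The transcription factors of the naive pluripotency network followed here in mouse embryonic stem cells (mESCs) were Klf2, Klf4, Klf5, Esrrb, Nr0b1, Tbx3, Tfcp2l1, Zfp42 and Prdm14. They are defined by name, for their known role, and the rule uses no measured value. All 9 genes had exonic values, of 34079 genes with exonic values in the series, and together they had 20 transcripts with exonic rows and 19 with intronic values. DTCM23/49 XY mESCs were grown in serum with leukemia inhibitory factor (LIF) on gelatin, without feeder cells being named. One culture was divided and both parts were passaged 8 times, which gave 2 biological replicates of a single line. Every plate received 200 µM 4-thiouridine (4sU), a uridine analog that is built into RNA made during the pulse, for 15, 30 or 60 min. RNA carrying 4sU was biotinylated and pulled down as the labeled fraction, and total RNA of cells labeled for the same time was sequenced beside it, so the total RNA also came from 4sU-treated cells. The 3 labeling times, 2 fractions and 2 replicates made 12 libraries, 6 labeled and 6 total. Because the replicates are parts of one culture, p-values measure the spread between these plates and not between independent lines.

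Naive pluripotency is the state of the epiblast before implantation, which mESCs keep in culture while LIF signals through Stat3. Klf4, Klf5 and Tfcp2l1 are known targets of that signal, Klf2 is held up by restraint of Erk signaling, and Esrrb and Tfcp2l1 are derepressed by Wnt signaling, which relieves Tcf7l1. These factors bind many of the enhancers that Oct4 (Pou5f1), Sox2 and Nanog bind, several can stand in for one another, and most are lost together when cells leave the naive state.

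Values are abundances per unit of length, and those of 1 or less are missing and were taken as 0. Each library was scaled to nearly the same sum over exons and introns together. Thus 20 units equal 1 TPM, a length-normalized unit, here taken over that joint sum and not over exonic RNA alone. Depth cannot be read from the values and no counting error can be given. The intronic share of all abundance was 6.53% to 7.41% in the 6 total libraries. It was 9.35% to 14.8% in 4 labeled libraries, but 7.24% in the 15 min and 6.99% in the 60 min library of labeled replicate 2, which were no richer in introns than total RNA. All 10 embryonic stem cell markers had mean exonic values of at least 20 units. None of the 6 endoderm, 6 trophectoderm, 5 mesoderm or 5 two-cell-like markers did. All 4 neural markers that could be matched did, as did 1 of 6 fibroblast markers (Thy1). Sox1, also listed as a neural marker, was not found by name in the annotation and has no value here. Col3a1, Pdgfrb and Dcn were at 0 in all libraries. In bulk RNA, fewer cells of a type and less RNA per cell cannot be told apart.

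In total RNA, summed over transcripts, the factors ranged from a mean of 905 units for Esrrb to one of 59.9 for Prdm14. Esrrb, an orphan nuclear receptor, had 792.67 to 968.97 units with a median of 915 (mean 905 ± 64.9, SD, n = 6), above all other members in every total library. Klf5, a zinc finger factor of the Krüppel-like family, followed with a mean of 468 ± 79.7 (SD, n = 6), and Nr0b1, an X-linked nuclear receptor without a classical DNA-binding domain, with 439 ± 91.5 (SD, n = 6). Tfcp2l1, a grainyhead-like factor downstream of Stat3, had a mean of 353 ± 40.0 (SD, n = 6). The T-box factor Tbx3 had 342 ± 56.6 (SD, n = 6) and Klf4 had 283 ± 23.4 (SD, n = 6). These 5 formed a run in which each neighbor overlapped the next.

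Zfp42 (Rex1), a widely used reporter of the naive state, had a mean of 163 ± 14.1 (SD, n = 6) and Klf2 one of 132 ± 20.9 (SD, n = 6), and their ranges also overlapped. Prdm14, which represses Fgf signaling and de novo methylation genes, was lowest with 49.99 to 74.46 units and a median of 57.4 (mean 59.9 ± 9.02, SD, n = 6). Only 3 of the 8 neighboring pairs had ranges that did not overlap: Esrrb above Klf5, Klf4 above Zfp42 and Klf2 above Prdm14. An exact two-sided permutation test over 6 paired libraries cannot give a p below 0.031. After adjustment over 8 pairs the lowest value was 0.0625, and no neighboring pair passed 0.05. A pair at that smallest p could pass only if most of the 8 pairs reached it, so the test cannot decide a single gap.

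**Figure D1:**
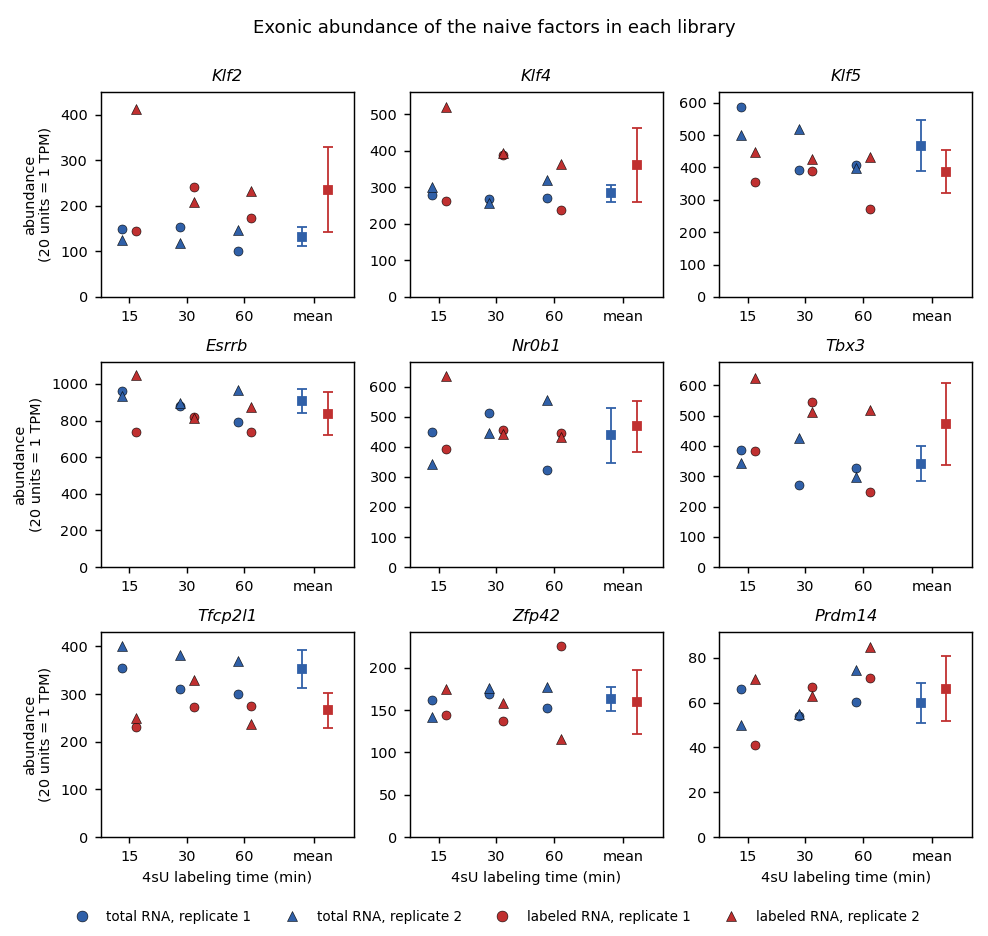
Exonic abundance of each naive factor (y axis, units of which 20 equal 1 TPM, from 0) against 4sU labeling time (x axis, min) in the 12 libraries, with circles for replicate 1, triangles for replicate 2, blue for total and red for labeled RNA. Squares and bars give mean and SD over 6 libraries, and for Klf2 the red points lie between 145.78 and 412.75 while the blue points lie between 100.74 and 153.18.

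The order depended on how transcripts were combined. Klf2, Klf5, Nr0b1, Prdm14, Tfcp2l1 and Zfp42 each had 1 transcript with values, while Esrrb had 6, Tbx3 had 5 and Klf4 had 3. By the highest transcript alone, Klf5 and Nr0b1 stood first, followed by Esrrb with a mean of 373 ± 28.2 (SD, n = 6), and Tbx3 next to last with 103 ± 18.3 (SD, n = 6). For Esrrb most of the abundance lay in 2 coding transcripts that differ little in length, Esrrb-001 with a total-RNA mean of 373 ± 28.2 and Esrrb-002 with 341 ± 28.4 (SD, n = 6), and the other 4 had means of 25.8 to 61.7. For Tbx3 the 3 long coding transcripts had means of 85.5, 93.4 and 103. Across the series, 64.1% of 454 pairs of transcripts of like length from 2-transcript genes lay within 1.2-fold of each other. The values alone thus do not tell whether reads were shared out among isoforms or counted for each. For quantification the authors name RSEM, a tool that shares reads out among isoforms. The sums were not corrected for the number of listed transcripts.

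Labeled RNA was compared with total RNA to ask which factors make up more of the RNA made within the pulse than of the standing pool. Of 9 members, 1 was higher and 1 was lower in labeled RNA (limma, adjusted over 13977 genes), against a background of 16.8% of genes called, 5.28% higher and 11.6% lower. Klf2 was higher and Tfcp2l1 was lower, and the median difference of the 9 was 0.10 on the log2 scale, against -0.05 over all genes tested. A share of 2 in 9 is near the background share and is no result about the group. In no member did all 6 labeled libraries lie above all 6 total libraries, or all below, as they did in 2.72% and 7.28% of genes.

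Klf2 (ENSMUSG00000055148, chr8:74842932-74845555, plus strand, NCBIM37) encodes a Krüppel-like factor that sustains self-renewal together with Klf4 and Klf5. Its exonic value was 145.78 to 412.75 units with a median of 221 in the 6 labeled libraries, and 100.74 to 153.18 with a median of 136 in the 6 total libraries. The groups overlapped, since the labeled 15 min library of replicate 1 lay within the range of total RNA, and the labeled 15 min library of replicate 2 stood far above the rest. The log2 difference was 0.76 (SE 0.22, limma adjusted p = 0.0376). With that high library left out the difference was 0.57 (adjusted p = 0.0372). The call was lost without the labeled 30 min library of replicate 1 (limma adjusted p = 0.0889) or replicate 2 (0.0755). Leaving out the labeled 60 min library of replicate 2 did the same (0.0654). It was also lost with labeled and total libraries paired by labeling time and replicate number, called the replicate block below (adjusted p = 0.0540). The difference stayed positive throughout. The high library, labeled 15 min of replicate 2, had an intronic share of 7.24%, within the range of total RNA. The labeled 60 min library of replicate 2, with 6.99%, had 231.99 units. The labeled 15 and 60 min libraries of replicate 1, with shares of 14.8% and 13.9%, had the lowest Klf2 exonic values, 145.78 and 173.53. How far this split contributed to the exonic difference was not tested.

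Tfcp2l1 (ENSMUSG00000026380, chr1:120524522-120581744, plus strand, NCBIM37) is the factor through which much of the LIF signal sustains self-renewal. It had 230.23 to 329.89 units with a median of 261 in labeled RNA, and 299.61 to 400.88 with a median of 363 in total RNA. At each labeling time both labeled libraries lay below both total libraries except at 30 min, where the labeled library of replicate 2 (329.89) lay above the total library of replicate 1 (311.11). The log2 difference was -0.41 (SE 0.12, limma adjusted p = 0.0373). This call too was lost with the replicate block (adjusted p = 0.0820) and without the labeled 15 min library of replicate 1 (0.0781) or replicate 2 (0.0505), the labeled 30 min library of replicate 1 (0.0813) or the labeled 60 min library of replicate 2 (0.0538).

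The other Krüppel-like members went in different directions without passing the test. Klf4, the member of the family used in reprogramming, had 238.02 to 519.84 units in labeled RNA and 256.64 to 319.53 in total RNA, with a log2 difference of 0.30 (SE 0.18, limma adjusted p = 0.262). Klf5 had 271.91 to 447.87 in labeled and 392.54 to 587.44 in total RNA, a difference of -0.27 (SE 0.14, limma adjusted p = 0.191). Tbx3 was the member closest to a call among these 7, with 247.75 to 626.25 units in labeled and 272.43 to 425.55 in total RNA and a log2 difference of 0.42 (SE 0.20, limma adjusted p = 0.161). Its lowest labeled value was that of 60 min replicate 1, without which the adjusted p was 0.0276.

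The nuclear receptors and the remaining factors differed little between fractions. Esrrb had a log2 difference of -0.12 (SE 0.11) and Nr0b1 one of 0.10 (SE 0.17). Zfp42 had -0.06 (SE 0.16) and Prdm14 had 0.12 (SE 0.16), and the limma adjusted p of these 4 lay between 0.482 and 0.827. At the level of transcripts, 1 of 20 member transcripts was higher and 1 was lower, the single transcripts of Klf2 and Tfcp2l1, against 17.3% of 45537 transcripts called. Esrrb-003, a shorter coding transcript, had a positive difference of 0.36 where Esrrb-001 had -0.19, and neither passed the test. Esrrb-003 had 118.98 and 124.64 units in the labeled 15 and 60 min libraries of replicate 1, which were richest in introns. In those of replicate 2, no richer in introns than total RNA, it had 53.23 and 37.74. How far this split contributed was not tested.

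**Figure D2:**
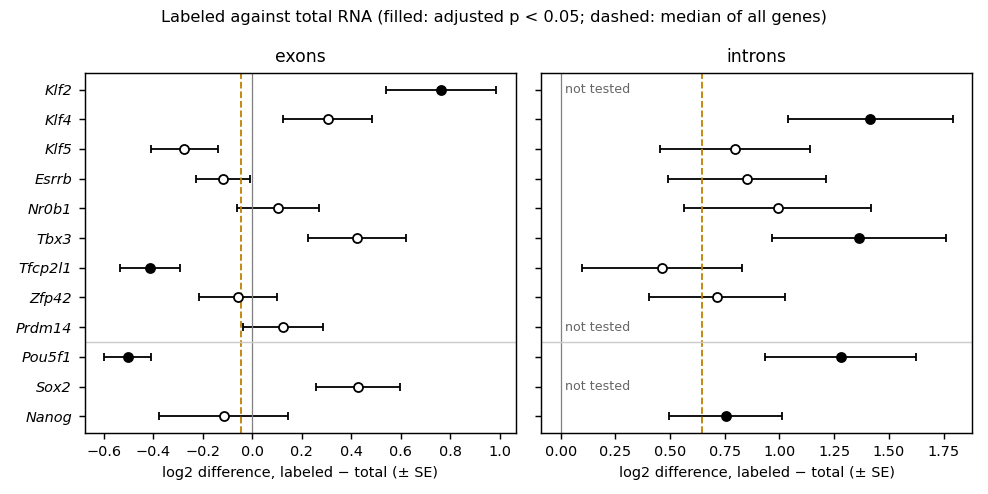
Difference between labeled and total RNA for each naive factor and for Pou5f1, Sox2 and Nanog (x axis, log2, with SE bars) in exons (left) and introns (right), with filled points for adjusted p under 0.05 and a dashed line at the median of all genes tested. In exons Klf2 lies at 0.76 and Tfcp2l1 at -0.41, and in introns all 7 members tested lie above 0, with Klf4 at 1.42 and Tbx3 at 1.37.

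As the ratio of labeled to total RNA bears on turnover, 3′ UTRs were searched for TATTTAT, the core of the AU-rich element, a sequence known for recruiting decay factors. In the longest annotated 3′ UTR of each gene (GENCODE M1, sense strand only), 3 of 9 members held it, against 23.9% of 19915 genes. The plain pentamer ATTTA, which every TATTTAT also holds, occurred in 7 of 9 against 61.3%. Klf2 and Tfcp2l1, which differed in opposite directions between fractions, both held the longer motif, as did Tbx3. These 4 windows, in sense orientation with the motif in capitals, show that Klf2 carries a copy at position 80 of a 3′ UTR of 737 bases, while Tfcp2l1 carries 2 in a 3′ UTR of 7733 bases, longer than that of 99.6% of genes. A match is a description of the sequence and says nothing of its use.
Klf2, chr8:74844888-74844914, plus strand: aacagactgcTATTTATtggaccttag
Tbx3, chr5:120134010-120134036, plus strand: ttggacaaagTATTTATgtaattattt
Tfcp2l1, chr1:120574488-120574514, plus strand: agactggagcTATTTATttgtgccttc
Tfcp2l1, chr1:120580511-120580537, plus strand: ttttgtgctgTATTTATggattgccga

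Intronic values stand mainly for RNA not yet spliced. Of the 7 members with introns above the filter, 2 were higher in labeled RNA and none was lower, against a background of 32.6% of 9117 genes called, 32.3% higher and 0.329% lower. Their median log2 difference was 0.85 against 0.65 over all genes. Klf4 had 23.77 to 86.68 units with a median of 57.4 in labeled RNA, and 8.44 to 33.1 with a median of 20.8 in total RNA, a difference of 1.42 (SE 0.38, limma adjusted p = 0.0120). Tbx3 had 37.16 to 218.35 with a median of 113 in labeled and 21.89 to 60.84 with a median of 42.1 in total RNA, a difference of 1.37 (SE 0.40, limma adjusted p = 0.0185). Within the range of total RNA lay 2 labeled libraries for Klf4 and 1 for Tbx3, and in none of the 7 did all labeled libraries lie above all total libraries, as they did in 17.0% of genes.

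For Esrrb, whose introns, summed over 6 transcripts, carried the highest values of the 9, labeled RNA had 126.97 to 543.22 units and total RNA 127.77 to 177.11, a log2 difference of 0.85 (SE 0.36, limma adjusted p = 0.0807). By the highest transcript its total-RNA mean was 18.1 units, below Klf5 with 37.3 and Zfp42 with 33.9. Klf5 differed by 0.80, Nr0b1 by 0.99, Zfp42 by 0.71 and Tfcp2l1 by 0.46, with adjusted p of 0.0842 to 0.317. Each of these 5 had at least 1 labeled library below the highest total library. With the replicate block, 6 of the 7 were higher, all but Tfcp2l1 (adjusted p = 0.226), and without replicate 2 the same number passed. Without replicate 1 only Klf4 passed, and the difference of Tbx3 was then 0.59 (adjusted p = 0.305).

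Median ratio scaling moved the median over all introns from 0.65 to -0.01, and 874 genes were then called higher and 811 lower, in place of 2946 and 30. Relative to that shifted median no member passed, with adjusted p of 0.0604 for Klf4 and 0.0596 for Tbx3, and Tfcp2l1 had a difference of -0.18. The introns of Klf2 and Prdm14 were below the filter. Klf2 introns had 3.39 to 15.53 units in labeled RNA and at most 3.35 in total RNA, being missing in 2 of 6 total libraries, so the groups did not overlap but met close to the cutoff of the table. Prdm14 introns had 9.12 to 37.86 units in labeled and 10.56 to 19.36 in total RNA.

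The members' introns moved with the intronic share of the library. Summed over the 9 genes, introns made up 31.2% and 29.7% of the abundance in the labeled 15 and 60 min libraries of replicate 1, and 14.5% and 17.8% in the labeled 30 min libraries. In the 15 and 60 min labeled libraries of replicate 2 they made up 7.14% and 9.54%, within or below the 7.56% to 10.5% of the total libraries. Introns of 8 or 9 of the 9 members exceeded their highest total library in the first 4 of these labeled libraries, but those of 2 and 3 members did so in the last 2. How far this split contributed to the intronic differences was not tested. Left out singly, the 15 min library of replicate 2 brought the count of members called to 5 and the 60 min library of replicate 2 to 6.

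**Figure D3:**
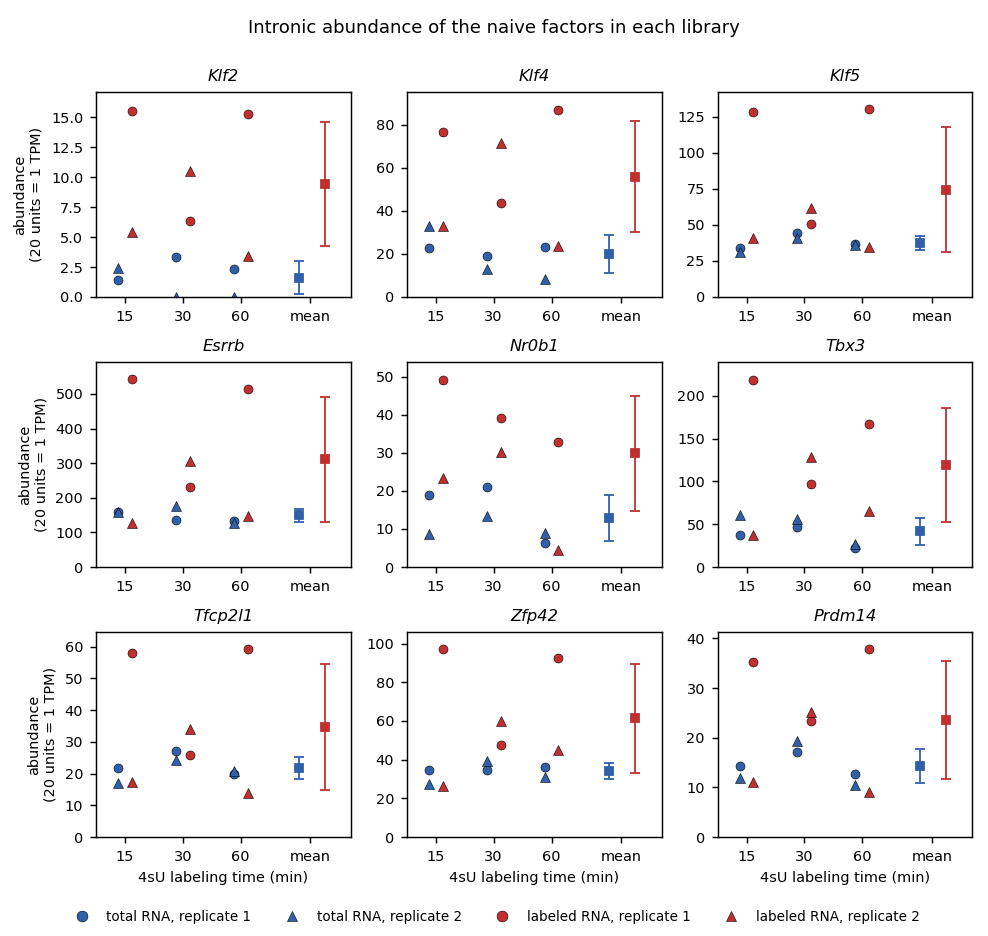
Intronic abundance of each naive factor (y axis, units of which 20 equal 1 TPM, from 0) against 4sU labeling time (x axis, min), with symbols, colors and bars as in the plot of exonic values. The red triangles of labeled replicate 2 at 15 and 60 min lie near the blue points of total RNA for most genes, whereas the red circles at 15 and 60 min lie far above them, reaching 543.22 units for Esrrb.

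The ratio of intronic to exonic value within a gene was compared between fractions as a measure of unspliced RNA that does not depend on the amount of the gene. None of the 7 members passed (limma adjusted p from 0.0726 to 0.164), against 27.0% of 7731 genes called, 26.8% higher. Their log2 differences ranged from 0.77 for Zfp42 to 1.11 for Klf4, with a median of 0.94 against 0.68 over all genes, which were thus shifted the same way. Median ratio scaling moved the members' median to 0.23 and that of all genes to -0.025, and no member passed. With the replicate block 3 passed, Esrrb (adjusted p = 0.0396), Klf4 (0.0296) and Klf5 (0.0389). Without the labeled 15 min library of replicate 2 all 7 passed, and without the labeled 60 min library of replicate 2, 5 passed.

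Rates were then derived with the simple relations of the labeled to the total pool. Synthesis is the labeled exonic value per hour of labeling, processing is synthesis over the total intronic value, and degradation is synthesis over the total exonic value less the intronic one. Since every library is scaled to the same sum, rates fall with labeling time by construction, and only the place of a gene among all genes at the same time can be read. At 15, 30 and 60 min the members' median synthesis was 5.12, 5.42 and 3.84 times the median of all genes with a rate. No filter on level was set for these genes, unlike in the comparison of fractions. At each time 8 of 9 lay above the median, all but Prdm14. Averaging each gene over the times at which it had a rate gave a ratio of 5.89 over 20732 genes. That average mixes unlike times for genes with a rate at some times only, so it cannot be read as a place. Median processing was 2.76, 2.62 and 2.60 times the median of all genes at the 3 times, and Prdm14 lay below the median of all genes at 15 and 30 min. Median degradation was 1.06, 0.930 and 0.888 times the median of all genes. Klf2 had processing and degradation rates at 15 min only, so the members' medians of both at 30 and 60 min were taken without it.

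By synthesis on gene sums, Esrrb stood highest, at the 87.2nd to 88.3rd percentile over the 3 labeling times, and Prdm14 lowest, at the 44.5th to 49.8th. By the highest transcript, the labeled exonic means of Nr0b1 (468 units) and Klf5 (387) exceeded that of Esrrb (332). By processing, Nr0b1, a gene with a single intron, stood at the 95.1st to 98.1st percentile and Klf4 at the 84.6th to 94.6th. Esrrb, Zfp42 and Prdm14, whose introns made up the largest shares of the summed abundance in total RNA (14.1%, 17.2% and 19.3%, with 4.62% for Esrrb by the highest transcript), lay between the 47.7th and 66.8th percentiles. The processing rate has the total intronic value as its divisor, so these places follow in part from that value.

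By degradation, Tfcp2l1 stood lowest of the 9, at the 3.62nd percentile at 15 min, the 28.7th at 30 min and the 14.6th at 60 min. Klf5 stood at the 10.5th, 33.8th and 28.4th. Tbx3 lay above the median of all genes at each time, between the 57.5th and 74.6th percentiles, while Klf4 ranged from the 39.7th to the 69.6th. Klf2 had intronic values in both total replicates at 15 min only, so its degradation could be placed at that time alone, at the 77.1st percentile. These places restate the exonic ratio of labeled to total RNA and are no separate evidence. Taken per replicate, the degradation of Klf2 was 2.96 per hour averaged over 15, 30 and 60 min in replicate 1, and 13.5 at 15 min alone in replicate 2. As rates fall with labeling time, these values of Klf2 cannot be set against each other. The average for Tfcp2l1, over the same times in both, was 1.89 and 1.71.

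**Figure D4:**
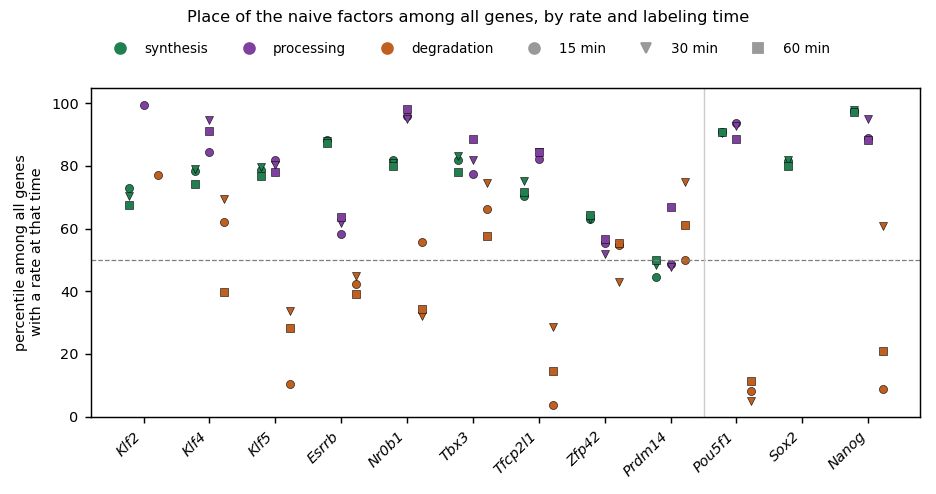
Percentile of each naive factor and of Pou5f1, Sox2 and Nanog among all genes with a rate at the same labeling time (y axis), by synthesis (green), processing (purple) and degradation (orange), with circles, downward triangles and squares for 15, 30 and 60 min and a dashed line at the middle of all genes. Degradation of Tfcp2l1 and Klf5 lies in the lower part at every time, while Klf2 has 1 orange point, at the 77.1st percentile, and Sox2, which has no intron, has synthesis only.

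Labeling time itself was compared next. Between 60 and 15 min no gene of 13977 passed in labeled RNA, in total RNA or in the difference between them (0% called in each, by limma), with 178, 108 and 162 genes at an unadjusted p under 0.05. For the members, labeled RNA at 60 min differed from 15 min by -0.45 (SE 0.37) for Tbx3 at the low end to 0.52 (SE 0.31) for Prdm14 at the high end. In total RNA the range was -0.43 (SE 0.26) for Klf5 to 0.22 (SE 0.31) for Prdm14. At each single labeling time no member passed between fractions, where 0%, 0.0286% and 0% of genes were called at 15, 30 and 60 min. Klf2 differed by 0.84, 0.73 and 0.72 at 15, 30 and 60 min (SE 0.43 each) and Tfcp2l1 by -0.65, -0.20 and -0.39 (SE 0.21 each), so each kept its sign at all 3 times. For Klf2 at 15 min the sign rested on replicate 2, with 412.75 units in labeled and 125.2 in total RNA. Replicate 1 had 145.78 in labeled and 150.13 in total RNA.

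Among the core factors, Pou5f1 was lower in labeled exons, with a log2 difference of -0.50 (SE 0.09, limma adjusted p = 0.00558), Sox2 had 0.43 (adjusted p = 0.104) and Nanog -0.12 (0.795). Other genes of the network were read from lists, against the background of 5.28% of all genes higher and 11.6% lower in labeled exons. Of 11 further naive-state genes tested, 1 was higher in labeled RNA and none was lower, and that was Fgf4 (0.67), an Oct4 and Sox2 target. Of 15 regulators of the LIF, Wnt and Erk pathways, 1 was higher and 4 were lower. The higher one was Socs3 (0.80), the feedback inhibitor of LIF signaling, and the lower ones included Tcf7l1 (-0.69), the Wnt-responsive repressor of naive genes. Of 7 formative and primed genes tested, none was higher and 4 were lower, beside 11.6% of all genes, among them the de novo methyltransferases Dnmt3b (-0.81) and Dnmt3a (-0.65) and the cadherin Cdh2 (-0.69). Of 6 other Krüppel-like genes tested none was called. The list medians were -0.02, -0.25, -0.56 and 0.14 in that order, against -0.05 over all genes tested.

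Across the 12 libraries the mean standardized exonic profile of the 9 members was most like those of Cdt1 (Pearson r = 0.96), Dda1 (0.93), Gm16165 (0.93), Nr1d1 (0.92) and Zfp828 (0.91). Of the members themselves, Esrrb (0.83) and Klf4 (0.77) followed that mean profile most closely and Zfp42 (0.09) and Tfcp2l1 (0.16) least. Each member is part of the mean it is set against, which raises its r, unlike for the genes named before. These are descriptions over libraries that share fractions, replicates and a fixed sum.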

How the data were processed

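Newly transcribed and total RNA of 4sU-labeled mESCs was depleted of ribosomal RNA and sequenced. Reads that still mapped to ribosomal RNA were set aside. The authors mapped 100-nucleotide reads with STAR 2.5.0 to exonic and intronic sequences and quantified them with RSEM. The submitters' notes name the mm10 build, and the Ensembl release that the study's methods name for protein-coding genes was not used here. The deposited values are a length-normalized signal per transcript, for exons and introns, scaled by the authors to nearly the same sum in each library (19988830 to 19992902), in which values of 1 or less are missing. They are not counts, so the planned test on counts was not run. Positions and gene names came from GENCODE M1 on NCBIM37 (mm9), which held 83847 of 111672 Ensembl transcripts with exonic rows (75.1%), and the rest entered no gene sum. Tfcp2l1 is named Tcfcp2l1 there.

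Transcript values were summed per gene and missing values taken as 0. Genes with a mean of at least 20 units over the 12 libraries were compared on log2(value + 1) with limma 3.58.1 in R 4.3.3, correcting for labeling time and allowing the variance to follow the mean. P-values were adjusted by the method of Benjamini and Hochberg over all genes tested, with a threshold of 0.05. The added 1 makes the changes of low genes appear smaller than they are. limma was tested on simulated data first, with 200 of 13977 genes changed. It recovered 101 of those changed by a log2 of 1 and 176 of those changed by 2, with 2 false calls each time. Differences below a log2 of 1, as in the members' exons, can thus go uncalled. The replicate number marks the part of the divided culture in the labels, but the reported fits did not use it. As an alternative, the replicate block paired labeled and total libraries of one labeling time and number. Between labeling times it added the number as a factor. With that pairing 0 members passed in exons, 6 in introns and 3 in the ratio, in place of 2, 2 and 0. Deviations of labeled and total libraries of one number correlated by -0.07, 0.05 and -0.19 at 15, 30 and 60 min across 13977 genes. Neighbors in level were compared with exact permutation tests. Rates were taken from replicate means, requiring a value in each, without INSPEcT. Other steps used Python 3.11.15, numpy 2.4.6, pandas 2.3.3 and matplotlib 3.10.9.

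The members and gene lists were chosen with earlier results of these data known. The genes named are the 9 members and their transcripts, the 3 core factors, the 3 called genes with the largest difference of each other list, and the 5 genes most like the members' mean profile. A gene that this rule names is not reported here. Of the marker lists, 3 of 10 embryonic stem cell markers were called (16.8% of all genes were, 11.6% lower), all lower in labeled exons, Lin28a (-1.16), Utf1 (-0.68) and Pou5f1, and 1 neural marker, Map2 (-0.88).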

Additional observations from a re-analysis of the deposited data

Results flagged for a closer look

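In 36 groups of 6 libraries (exons and introns of the 9 members in labeled and in total RNA), 2 values stood apart from the rest of their group by more than 0.625 of its range, where chance gives about 1 in 20, or 1.8. Both were exonic values in the labeled 15 min library of replicate 2. Klf2 had 412.75 units there and at most 240.39 in the other 5 labeled libraries. Nr0b1 had 634.88 units there and at most 456.36 in the others. The members' exonic values in that library summed to 4188 units, against 2686 to 3353 in the other labeled libraries, and its intronic share was the second lowest of the 6.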

How the results depend on the processing

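Of the alternatives, the highest transcript in place of the gene sum in the limma fits, leaving out a labeled library other than that of 15 min replicate 2, and the crossed pairing were chosen after seeing the data. Exons: with the replicate block 1270 genes, 4470 transcripts and 0 members were called. Without a filter 0 members and 0 member transcripts passed. Median ratio scaling left 1 member transcript. Without one replicate 0 to 5 genes, 0 to 7 transcripts and 0 members passed. Without one labeled library the counts were 1436 to 2931 genes and 4753 to 10439 transcripts, with 0 to 3 members and 0 to 5 member transcripts.

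Introns: 4715 genes were called without a filter, 1685 with median ratio scaling (0 members) and 1308 by the highest transcript. With the replicate block 6 members passed. Without one replicate 1094 to 4801 genes and 1 to 6 members passed, and without one labeled library 1832 to 5086 genes and 2 to 6 members. For the intron to exon ratio 824 genes were called with median ratio scaling and 869 by the highest transcript, and 3 members with the replicate block. Without one replicate 252 to 3453 genes and 0 to 6 members passed, and without one labeled library 872 to 4824 genes and 0 to 7 members. With numbers crossed at 60 min the block gave 2 exonic, 6 intronic and 1 ratio call among members.

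Labeling time: by settings other than the reported one, 0 to 4 genes were called in labeled RNA (4 without a filter, 2 without a trend), up to 7 in total RNA (4 with a pseudocount of 20, 7 without a filter, 3 with median ratio scaling, 4 without a trend, 3 by the highest transcript) and up to 8 in their difference (4, 8 and 5 with a pseudocount of 20, no filter and no trend). None was a member. With one replicate left out these comparisons have no residual degrees of freedom. The blocked fit changed no other call of a member.

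Rates: the ratio of medians of synthesis was 3.84 at 60 min alone. Averaged over the times with a rate, it was 6.41 to 8.66 with one replicate. Averaged likewise, that of processing was 2.20 by the highest transcript and 2.94 to 3.10 with one replicate. That of degradation was 0.939 to 1.10 with one replicate. The causes were not tested. DESeq2 was not run, since the values used here are not counts. Depth is unknown, so no limit of detection can be given beyond the cutoff of the table.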
